A study of Mus musculus with 10 samples.

Results

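A set of 9 genes is grouped here under the patterning of the neocortex into areas. They are the transcription factors Nr2f1, Nr2f2, Sp8, Emx1, Emx2, Lhx2 and Bhlhe22 and the LIM-only cofactors Lmo3 and Lmo4. They were found in the footprint count table by matching its Ensembl identifiers to these symbols. All 9 were among its 22373 genes, and all 9 passed the filter on low counts that 13484 genes passed. Ribo-seq sequences the mRNA fragments protected by ribosomes (footprints), so that a footprint count depends on how much of an mRNA there is and on how densely ribosomes sit on it. It was performed on neocortex dissected from wild-type CD-1 mice at embryonic days E12.5, E14, E15.5 and E17, from timed pregnancies, and at P0, the day of birth. Each of the 5 stages had 2 libraries, and each library was made from many pooled brains of both sexes, digested with RNases T1 and A and enriched for single ribosomes on a sucrose gradient. No group carried an allele or received a treatment, and stage is what separates the groups. A replicate is therefore a pool, and its spread is not that between single animals.

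The neocortex acquires its areas in steps. Signalling centres at its rostral and medial edges release FGFs, WNTs and BMPs, transcription factors in the progenitors are then expressed in opposing gradients, and the neurons born from these progenitors keep or sharpen area-specific programmes. Emx2 (high caudomedially), Sp8 (high rostromedially) and Nr2f1 (high caudolaterally) are known graded factors of progenitors, whereas Lmo4 and Bhlhe22 are known for their part in postmitotic neurons of particular areas. Whole neocortex was measured here, so a gradient across its surface cannot be seen, and fewer cells of a type and less mRNA or translation per cell cannot be told apart.

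The libraries held between 7544404 and 36129988 counts, with P0 replicate 1 the shallowest. Values below are CPM, counts relative to a library size scaled by TMM (a factor that sets aside the genes that differ most between libraries). The 93 histone genes took between 6.59% and 39.6% of counts, the largest share at E12.5, and the 2 P0 libraries stood further apart than those of any other stage, with an SD of the log2 ratio between replicates of 0.54 over 4559 genes against 0.13 to 0.22 elsewhere. CPM does not correct for gene length, so levels were compared between stages and not between genes.

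Across the 5 stages the members fell into 3 courses. Emx2, Emx1, Lhx2 and Sp8 fell between E12.5 and P0, Lmo4, Lmo3 and Bhlhe22 rose, and Nr2f1 and Nr2f2 were not called in either direction. Called means a limma-voom adjusted p under 0.05 and a change of at least 0.32 on the log2 scale, the size of change the study used as its threshold. At that threshold 3 of 9 members were higher and 4 of 9 were lower at P0 than at E12.5, where 30.1% of all tested genes were called higher and 32% lower. The median log2 fold change of the members was 0.0054, beside -0.013 for all tested genes. A moderated F test over all stages called 7 of 9 members, and 63.8% of all genes. With 9 genes both counts are near the shares of all genes, and nothing particular to the members is read from them.

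**Figure D1:**
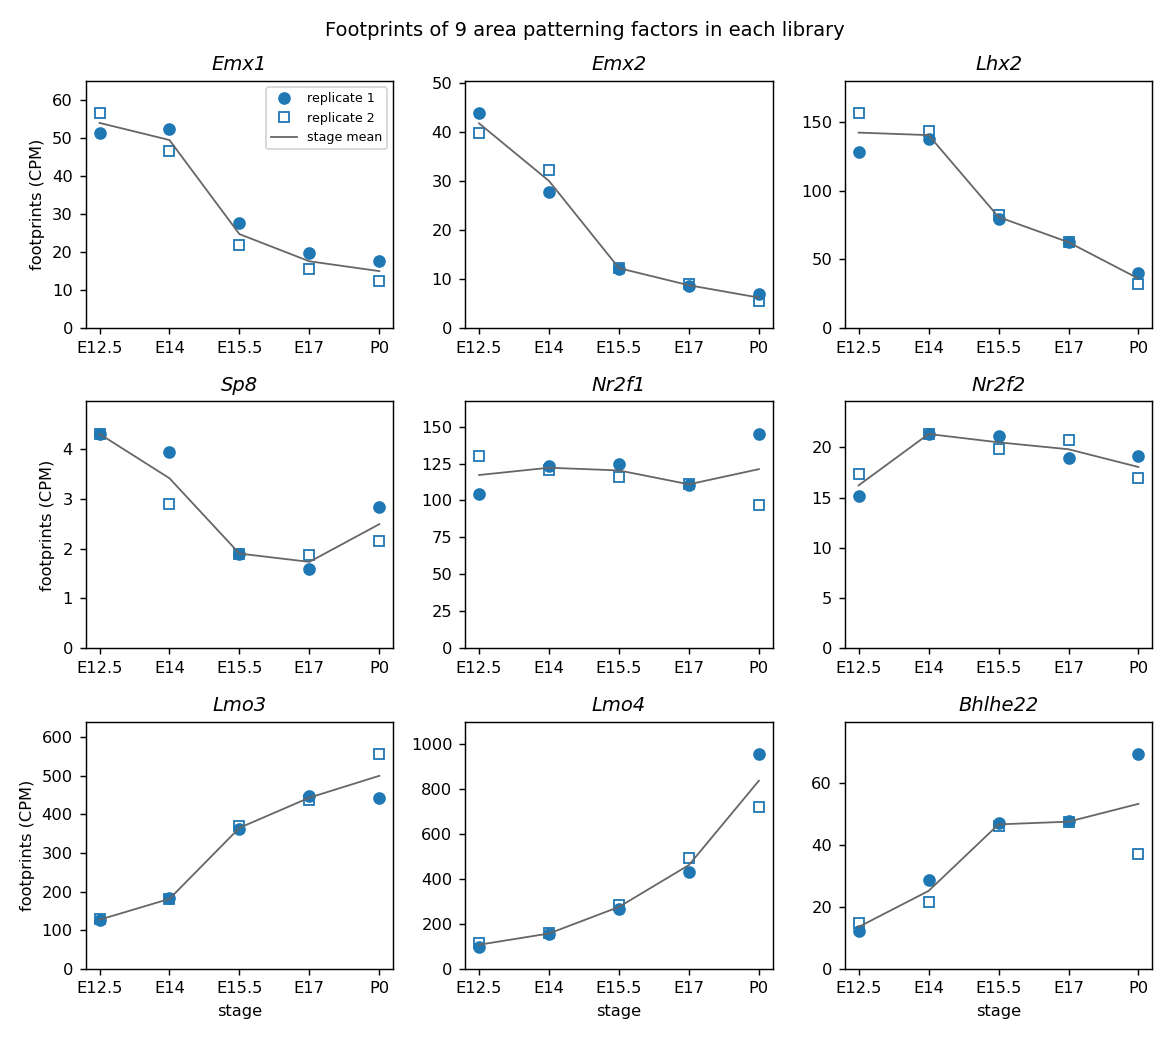
Footprints of each member in CPM (vertical axis, from 0) against stage (horizontal axis), with replicate 1 as filled circles, replicate 2 as open squares and a line through the stage means. Emx1, Emx2, Lhx2 and Sp8 are higher at E12.5 and E14 than from E15.5 on, and Lmo3, Lmo4 and Bhlhe22 run the other way. Lhx2 keeps falling and Lmo4 keeps climbing up to P0. The P0 replicates of Nr2f1 (145 and 97.2 CPM) and Bhlhe22 (69.4 and 37.2 CPM) lie far apart.

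The promoters of the 2 members with the largest falls and of the 2 with the largest rises are shown so that the DNA ahead of genes with opposite courses can be read side by side. Each window is the 250 bases before the gene's most upstream start, 5′ to 3′ on the gene's strand, from RefSeq on GRCm38.p6. Windows before any other start of a gene were not searched. Capitals mark GGGCGG, the GC box word that Sp-family zinc finger proteins are known to bind, on either strand. Emx2 lies on the plus strand with its window at chr19:59458440-59458689, and Lhx2 on the plus strand at chr2:38339031-38339280. Lmo4 lies on the minus strand with its window at chr3:144205256-144205505, and Lmo3 on the minus strand at chr6:138581969-138582218.
Emx2: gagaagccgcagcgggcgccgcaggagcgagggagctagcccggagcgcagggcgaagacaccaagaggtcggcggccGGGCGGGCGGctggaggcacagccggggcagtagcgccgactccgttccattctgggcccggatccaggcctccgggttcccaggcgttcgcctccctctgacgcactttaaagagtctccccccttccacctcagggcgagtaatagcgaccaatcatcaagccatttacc
Lhx2: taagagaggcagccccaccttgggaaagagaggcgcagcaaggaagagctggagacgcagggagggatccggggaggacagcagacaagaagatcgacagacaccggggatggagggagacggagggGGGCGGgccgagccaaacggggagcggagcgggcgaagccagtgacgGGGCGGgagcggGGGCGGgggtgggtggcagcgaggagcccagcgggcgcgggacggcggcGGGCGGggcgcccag
Lmo4: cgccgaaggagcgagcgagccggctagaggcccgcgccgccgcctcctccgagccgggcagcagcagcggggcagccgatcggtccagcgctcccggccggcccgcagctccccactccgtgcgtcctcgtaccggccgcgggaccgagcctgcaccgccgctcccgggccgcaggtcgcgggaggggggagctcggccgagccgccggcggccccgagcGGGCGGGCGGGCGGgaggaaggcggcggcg
Lmo3: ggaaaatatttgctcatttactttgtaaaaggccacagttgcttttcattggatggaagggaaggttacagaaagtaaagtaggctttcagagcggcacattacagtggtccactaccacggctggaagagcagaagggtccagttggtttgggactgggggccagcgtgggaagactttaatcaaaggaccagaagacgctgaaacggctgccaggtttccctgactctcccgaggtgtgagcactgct

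Of the 9 members, 8 had a promoter sequence, and Bhlhe22 had none. GGGCGG or its complement CCGCCC, with overlapping matches counted separately, occurred in 5 of the 8 windows, against 33.0% of 27025 promoters. It was found 4 times in Lhx2 and in Emx1, 3 times in Lmo4, 2 times in Emx2 and 1 time in Nr2f1, and not in the windows of Lmo3, Nr2f2 and Sp8. Both a member that fell and a member that rose (Emx2 and Lmo4) thus held the word. The GC content of the Lmo4 window was 82.4%, that of Lhx2 72.8%, of Emx2 67.2% and of Lmo3 50.0%, with a median of 52.0% over all promoters. The letters TAATTA (a homeodomain core, in 4.9% of promoters), AGGTCA (a nuclear receptor half-site, 13.8%) and CATCTG (an E-box, 14.5%) were searched on both strands and were in none of the 8 windows. A match or its absence describes these letters in this window and not the binding of a factor.

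Emx2 (ENSMUSG00000043969), a homeodomain factor whose loss is known to shrink caudal areas, had the largest fall among the members. Its footprints were 43.9 and 39.8 CPM (E12.5), 27.8 and 32.3 (E14), 12.1 and 12.3 (E15.5), 8.48 and 8.97 (E17), and 6.96 and 5.44 (P0). No stage overlapped with the next, and the highest stage mean was 6.74 times the lowest. From E12.5 to P0 the log2 fold change was -2.82 (SE 0.14, adjusted p = 1.61e-06), lower than that of all but 4.67% of tested genes. The step from E14 to E15.5 held 46.0% of it, with a log2 fold change of -1.30 (SE 0.13, adjusted p = 0.000241). Both calls held without any 1 library and under 10 other settings of scaling, filter, test and design.

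Emx1 (ENSMUSG00000033726), the paralogue of Emx2 and a known mark of pallial progenitors and their neurons, had 51.4 and 56.5 CPM (E12.5) and 52.3 and 46.7 (E14). It then had 27.6 and 21.8 CPM (E15.5), 19.7 and 15.4 (E17), and 17.6 and 12.3 (P0). The libraries of E12.5 and E14 overlapped and all lay above every later one, and E17 and P0 overlapped. The log2 fold change was -1.93 (SE 0.20, adjusted p = 6.53e-05) from E12.5 to P0 and -1.0 (SE 0.19, adjusted p = 0.00423) from E14 to E15.5. That step held 51.9% of the change over all stages, and both calls held without any 1 library.

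Lhx2 (ENSMUSG00000000247) encodes a LIM-homeodomain factor known as a selector of cortical identity that is needed to keep progenitors from becoming hem. It had 128 and 157 CPM (E12.5), 138 and 143 (E14), 79.8 and 82.1 (E15.5), 62.7 and 62.4 (E17), and 40.1 and 31.9 (P0). The first 2 stages overlapped, and from E14 on every stage lay below the one before. Its fall from E12.5 to P0 (log2 fold change -2.01, SE 0.14, adjusted p = 6.2e-06) came in 2 called steps, E14 to E15.5 (-0.80, SE 0.13, adjusted p = 0.00218) and E17 to P0 (-0.83, SE 0.14, adjusted p = 0.0061). These held 39.7% and 41.1% of the log2 change. The later step was not called without E17 replicate 1 (adjusted p = 0.0557, range over all alternatives 4.65e-05 to 0.103).

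Sp8 (ENSMUSG00000048562), a zinc finger factor known to favour rostral areas, rested on the fewest reads, 26 to 115 counts per library. It had 4.29 and 4.30 CPM (E12.5), 3.93 and 2.88 (E14), 1.90 and 1.90 (E15.5), 1.59 and 1.88 (E17), and 2.83 and 2.15 (P0). Both E12.5 libraries were above all later ones, and the P0 libraries lay above those of E15.5 and E17 without a call (E17 to P0 log2 fold change 0.41, SE 0.22, adjusted p = 0.214). The log2 fold change was -0.90 (SE 0.20, adjusted p = 0.00454) from E12.5 to P0 and -0.80 (SE 0.20, adjusted p = 0.0156) from E14 to E15.5. The first was not called without P0 replicate 2 (-0.55, adjusted p = 0.141, range over all alternatives 0.00232 to 0.141) and the second without E14 replicate 1 or either E15.5 library (range over all alternatives 0.00238 to 0.0943). With total counts in place of TMM neither was called, with sample quality weights the first was not (adjusted p = 0.0838), and in DESeq2's Wald test the second was not (adjusted p = 0.0571).

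Nr2f1 (ENSMUSG00000069171), also called COUP-TFI, is an orphan nuclear receptor known to limit frontal and motor areas. Its footprints were 104 and 130 CPM (E12.5), 124 and 121 (E14), 125 and 116 (E15.5), 110 and 111 (E17), and 145 and 97.2 (P0). The stage means lay within 1.10-fold of each other, and the P0 pair alone spanned every other library. From E12.5 to P0 the log2 fold change was 0.0054 (SE 0.18, adjusted p = 0.981), and the F test over the stages gave an adjusted p of 0.951. Which P0 library was used decided the sign, with -0.26 when P0 replicate 1 was left out and 0.35, called at an adjusted p of 0.0495, when P0 replicate 2 was, where 32.1% of all genes were called higher (range over all alternatives 0.0331 to 0.987).

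Nr2f2 (ENSMUSG00000030551), its paralogue COUP-TFII, is known from caudal and ventral forebrain and from migrating interneurons. It had 15.1 and 17.3 CPM (E12.5), 21.3 and 21.4 (E14), 21.2 and 19.8 (E15.5), 18.9 and 20.7 (E17), and 19.1 and 16.9 (P0). E12.5 was below E14 without overlap and overlapped with P0, and the highest stage mean was 1.31 times the lowest. The log2 fold change was 0.39 (SE 0.12, adjusted p = 0.149) from E12.5 to E14 and 0.13 (SE 0.12, adjusted p = 0.36) from E12.5 to P0, and the F test gave an adjusted p of 0.0697. Without P0 replicate 1 or replicate 2 the F test passed (adjusted p = 0.0248 and 0.0360, range over all alternatives 0.00358 to 0.239). With total counts in place of TMM, the median log2 fold change of all genes between E12.5 and P0 was 0.51, Nr2f2 (log2 fold change 0.66) and Nr2f1 (0.53) were both called higher at P0, and so were 47.8% of all genes.

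Lmo4 (ENSMUSG00000028266), a LIM-only adaptor that binds Ldb proteins and is known in postmitotic neurons of motor and callosal type, had the largest rise. It had 99.1 and 115 CPM (E12.5), 155 and 159 (E14), 267 and 283 (E15.5), 431 and 491 (E17), and 954 and 718 (P0). Every stage lay above the one before without overlap, and the last stage mean was 7.82 times the first. The log2 fold change from E12.5 to P0 was 2.96 (SE 0.15, adjusted p = 1.43e-06), above that of 94.4% of tested genes. Its rise was spread over the series, with 18.7%, 27.4%, 25.1% and 28.8% of the log2 change in the 4 successive steps. It was the 1 member called in each of the last 3 steps, at log2 fold changes of 0.81 (SE 0.15, adjusted p = 0.00346), 0.74 (SE 0.15, adjusted p = 0.0221) and 0.85 (SE 0.15, adjusted p = 0.00683). The call from E15.5 to E17 was lost without any 1 of the 4 libraries compared, and that from E17 to P0 without E17 replicate 1. Calls among all genes fell in these fits as well, so the losses were not particular to Lmo4. Without 1 library the log2 fold changes ranged from 0.65 to 0.84 (E15.5 to E17) and from 0.64 to 1.08 (E17 to P0). The fold changes of Lmo4 kept their direction under every alternative.

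Lmo3 (ENSMUSG00000030226), a LIM-only paralogue of Lmo4, had 125 and 129 CPM (E12.5) and 182 and 180 (E14). It reached 361 and 369 CPM (E15.5), 448 and 438 (E17), and 443 and 556 (P0). Each stage up to E17 lay above the one before, and P0 overlapped with E17. Its log2 fold change was 1.96 (SE 0.11, adjusted p = 2.73e-06) from E12.5 to P0, of which 51.5% fell in the step from E14 to E15.5 (1.01, SE 0.11, adjusted p = 0.000377). Both calls held without any 1 library.

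Bhlhe22 (ENSMUSG00000025128), a basic helix-loop-helix repressor known from postmitotic neurons of sensory areas, had 12.1 and 15.0 CPM (E12.5), 28.7 and 21.6 (E14), 47.2 and 46.1 (E15.5), 47.8 and 47.3 (E17), and 69.4 and 37.2 (P0). The stages up to E15.5 lay apart in rising order, and the P0 libraries lay on either side of those of E15.5 and E17. The log2 fold change was 1.86 (SE 0.28, adjusted p = 0.000539) from E12.5 to P0 and 0.91 (SE 0.26, adjusted p = 0.0275) from E14 to E15.5, and the first 2 steps held 47.0% and 48.9% of the whole. The change from E17 to P0 was -0.35 with the first P0 library left out and 0.58, called at an adjusted p of 0.0322, with the second left out (range over all alternatives 0.0322 to 0.961), and the call from E14 to E15.5 was lost without E14 replicate 2 or either E15.5 library (adjusted p from 0.104 to 0.179).

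Set side by side, the steps differed in how many members moved. From E12.5 to E14, limma-voom called 0 of 9 members, where 0.497% of all genes were called higher and 0.141% lower. In the same step 5 members had an unadjusted p under 0.05, as did 15.8% of all genes, and 6 had stages that did not overlap, as did 53.2%. edgeR called 0 members and 0.63% of all genes, and DESeq2 called 3 members and 4.83% of the 8255 genes it gave an adjusted p. Without either P0 library, which bear on this step through the estimate of the spread, 5 members were called (Emx2 lower, and Nr2f2, Lmo3, Lmo4 and Bhlhe22 higher, with adjusted p from 0.00667 to 0.0475). The calls among all genes rose with them, to 4.58% higher and 3.34% lower without P0 replicate 1 and to 4.8% higher and 3.22% lower without P0 replicate 2. The step from E14 to E15.5 moved 7 of 9 members, with Lmo3, Lmo4 and Bhlhe22 higher and Emx1, Emx2, Lhx2 and Sp8 lower. It was also the adjacent step with the most calls among all genes, 16.5% higher and 19.6% lower.

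From E15.5 to E17, Lmo4 was the 1 member called, beside 5.61% of all genes higher and 3.43% lower. Emx1 (log2 fold change -0.50), Emx2 (-0.49) and Lhx2 (-0.37) had adjusted p of 0.155, 0.0662 and 0.121, and these 3 were called lower without either P0 library, when 8.77% (without P0 replicate 1) and 9.36% (without P0 replicate 2) of all genes were. From E17 to P0, Lmo4 was called higher and Lhx2 and Emx2 lower, where 9.46% of all genes were higher and 11.1% lower. The Emx2 change (-0.56, SE 0.15, adjusted p = 0.0352) was not called in 7 of 10 fits without 1 library, among them that without P0 replicate 2 (-0.29). Of 10 other settings, 5 kept the call. It was lost with total counts (adjusted p = 0.0948), in DESeq2's Wald test (0.0667) and with sample quality weights (0.252). The replicate number as a block (0.063) and the 2 stages fitted alone (0.203) lost it too. Without P0 replicate 1, Lmo3 was called higher as well (0.33), where 16.1% of all genes were, and without P0 replicate 2 Nr2f1 (0.42) and Bhlhe22 (0.58) were, where 17.5% were. Adjacent steps share the libraries of 1 stage, so their values are not independent, and whether a member's change differed between steps was not tested.

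**Figure D2:**
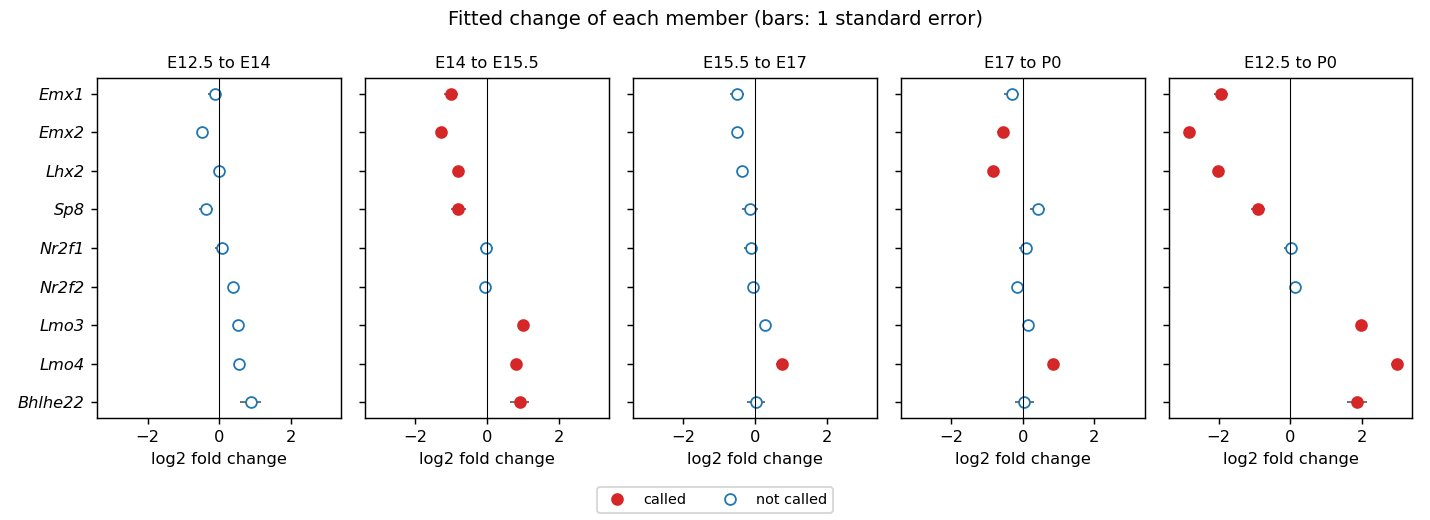
Fitted log2 fold change (horizontal axis, second stage minus first) of each member (vertical axis) in each comparison, with bars of 1 standard error, filled where called and open where not. The panel from E14 to E15.5 holds 7 filled points, 4 to the left and 3 to the right of 0, whereas the first panel holds none.

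Ratios of counts between 2 genes within a library do not depend on the library size or its scaling. Of 5 pairs of paralogues or of factors known to oppose each other, 2 differed across the stages in an exact permutation test of the F statistic over 113400 assignments of the libraries, adjusted over the 5 pairs. The smallest p this design allows is 0.00106. Ratios show unequal change of 2 genes, and their size is not a ratio of protein output because coding lengths were not used.

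The log2 ratio of Lmo3 to Lmo4 averaged 0.25 at E12.5, 0.21 at E14 and 0.41 at E15.5, then -0.055 at E17 and -0.74 at P0. Both E17 and both P0 libraries lay below all 6 earlier ones, and the P0 pair (-1.11 and -0.37) was wide. Its change from E12.5 to P0 was -0.99, and the exact permutation p over the stages was 0.00423 (adjusted 0.0106). The log2 ratio of Nr2f1 to Sp8 averaged 4.75, 5.17, 5.97, 5.99 and 5.57 in order of stage, with a change of 0.82 and an exact permutation p of 0.00317 (adjusted 0.0106). Without 1 library the adjusted p for Lmo3 to Lmo4 stayed under 0.05 in 1 of 10 exact tests, that without P0 replicate 2 (0.0212 to 0.177). For Nr2f1 to Sp8 it did so in 3 of 10, those without replicate 2 of E14, E17 or P0 (0.0370 to 0.143).

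Emx1 to Emx2 averaged 0.37 on the log2 scale at E12.5, 0.72 at E14 and 1.0 at E15.5 and at E17, and was 1.33 and 1.17 in the P0 libraries, a change of 0.89 from E12.5 to P0 in which all later libraries lay above both E12.5 libraries. The exact permutation p over the stages was 0.0942 (adjusted 0.118), so that the unequal fall of the paralogues did not pass this test, and it passed with the replicate number as a block (adjusted p = 0.0278, range over all alternatives 0.0278 to 0.262). Pax6, a paired-homeodomain factor of progenitors known to counter Emx2, fell from 202 to 30.7 CPM between E12.5 and P0. Its log2 ratio to Emx2 was 2.27 at E12.5, 2.83 at E15.5 and 2.31 at P0, with an exact permutation p of 0.0878 (adjusted 0.118). For Nr2f1 to Nr2f2 the change was -0.13 (exact permutation p = 0.26, adjusted 0.26), and it turned to 0.074 without P0 replicate 2 (adjusted p = 0.0459, range over all alternatives 0.0459 to 0.333).

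**Figure D3:**
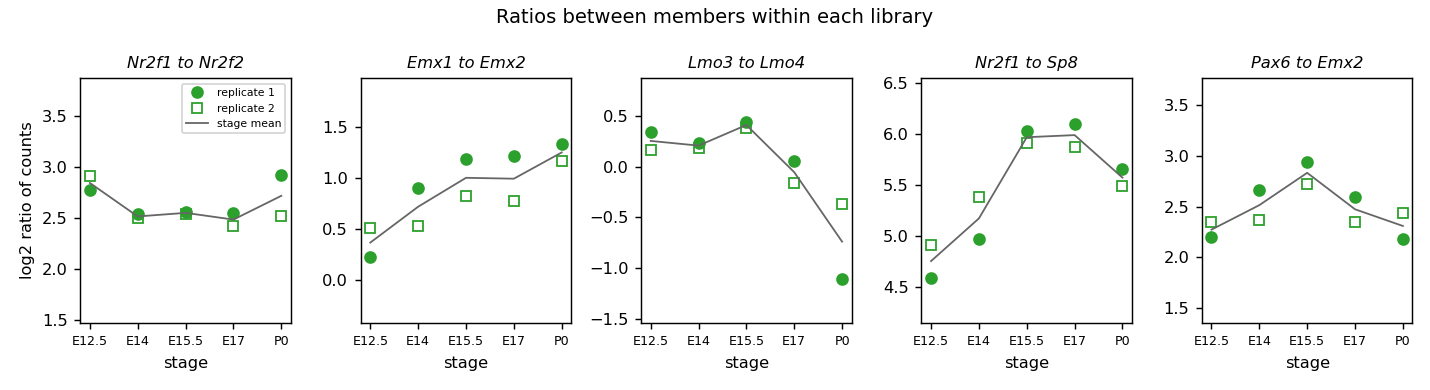
Log2 ratio of counts between 2 genes in each library (vertical axis, every panel spanning the same height) against stage (horizontal axis), with replicate 1 as filled circles, replicate 2 as open squares and lines through the stage means. Lmo3 to Lmo4 ends at a mean of -0.74 and Emx1 to Emx2 at 1.33 and 1.17, while Pax6 to Emx2 rises to 2.83 at E15.5 and returns to 2.31.

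The other genes of the patterning pathway were taken from 4 lists. Beside their counts, 30.1% of all tested genes were called higher and 32% lower from E12.5 to P0. From E14 to E15.5 these shares were 16.5% and 19.6%. The lists are small, and whether their counts differ from these shares was not tested. Among 15 secreted patterning signals (FGFs, WNTs, BMPs and their kin), 9 were tested, and from E12.5 to P0 6 were called lower and 3 were not called (median log2 fold change -2.12). Fgf3, Fgf8, Fgf15, Fgf17, Wnt2b and Bmp6 had too few footprints to be tested. Fgf18 was the only FGF tested, so these counts say little on FGFs. Wnt8b and Wnt3a, WNT ligands known from the cortical hem and the medial wall, had the largest falls. The counts of Wnt8b were 81 and 117 in the E12.5 libraries, 59 and 99 in those of E14, and 1 to 4 in each later library (adjusted p = 9.41e-05 from E12.5 to P0). Wnt3a had 25 to 31 counts in the 4 libraries of E12.5 and E14 and 0 or 1 in each of the 6 later ones (adjusted p = 0.000444). The 6 called falls at the step from E14 to E15.5 (median -2.43) equalled in number those over the whole series.

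Among 16 other patterning factors, all tested, 5 were called higher and 8 lower from E12.5 to P0 (median -1.02). The FGF-responsive ETS factors Etv4 (log2 fold change 2.53, SE 0.27, adjusted p = 7.84e-05) and Etv1 (1.78, SE 0.14, adjusted p = 1.47e-05) rose most. The Hedgehog pathway factor Gli3 fell from 8.03 to 0.672 CPM, a log2 fold change of -3.52 (SE 0.21, adjusted p = 3.27e-06). Dmrt3, a DM-domain factor of medial progenitors, had 134 and 248 counts in the E12.5 libraries and 0 and 7 in those of P0 (adjusted p = 0.000479). Pax6 was also called lower, with a log2 fold change of -2.73.

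The list of 12 partners and paralogues holds the proteins that LIM factors bind and the relatives of the members. Of its 11 tested genes, 5 were called higher and 2 lower from E12.5 to P0 (median 0.32). Ldb2, a LIM-domain-binding cofactor of Lhx and Lmo proteins, rose from 10.6 to 164 CPM, a log2 fold change of 3.94 (SE 0.17, adjusted p = 8.48e-07). Ssbp2, which stabilises Ldb proteins, rose by 2.0 on the log2 scale (SE 0.15, adjusted p = 1.01e-05), and Ldb1, the paralogue of Ldb2, had a log2 fold change of -0.28 (SE 0.084, adjusted p = 0.0196), short of the size of change required for a call. Lhx9, the nearest relative of Lhx2, fell from 60.7 to 1.26 CPM, a log2 fold change of -5.60 (SE 0.28, adjusted p = 1.5e-06), and Lmo2 fell by 1.42 on the log2 scale (SE 0.19, adjusted p = 0.000263). The fall of Lhx9 lay mostly at E14 to E15.5, from 51.1 to 6.06 CPM, the step at which Lhx2 lost less (log2 fold change -3.07 and -0.80).

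Of 10 genes known to mark areas, all tested, 8 were called higher and 1 lower from E12.5 to P0 (median 1.31), and 6 higher and 1 lower from E14 to E15.5 (median 0.77). Rorb, a nuclear receptor of layer 4 that marks sensory areas, rose from 3.45 to 27.1 CPM, a log2 fold change of 2.98 (SE 0.16, adjusted p = 2.19e-06), and the HLH protein Id2 rose by 2.29 (SE 0.13, adjusted p = 2.25e-06). The WNT effector Lef1, known in medial progenitors, fell from 35.0 to 3.21 CPM, a log2 fold change of -3.42 (SE 0.15, adjusted p = 7.76e-07). Beside these counts, the medians of all tested genes were -0.013 from E12.5 to P0 and -0.0086 from E14 to E15.5.

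**Figure D4:**
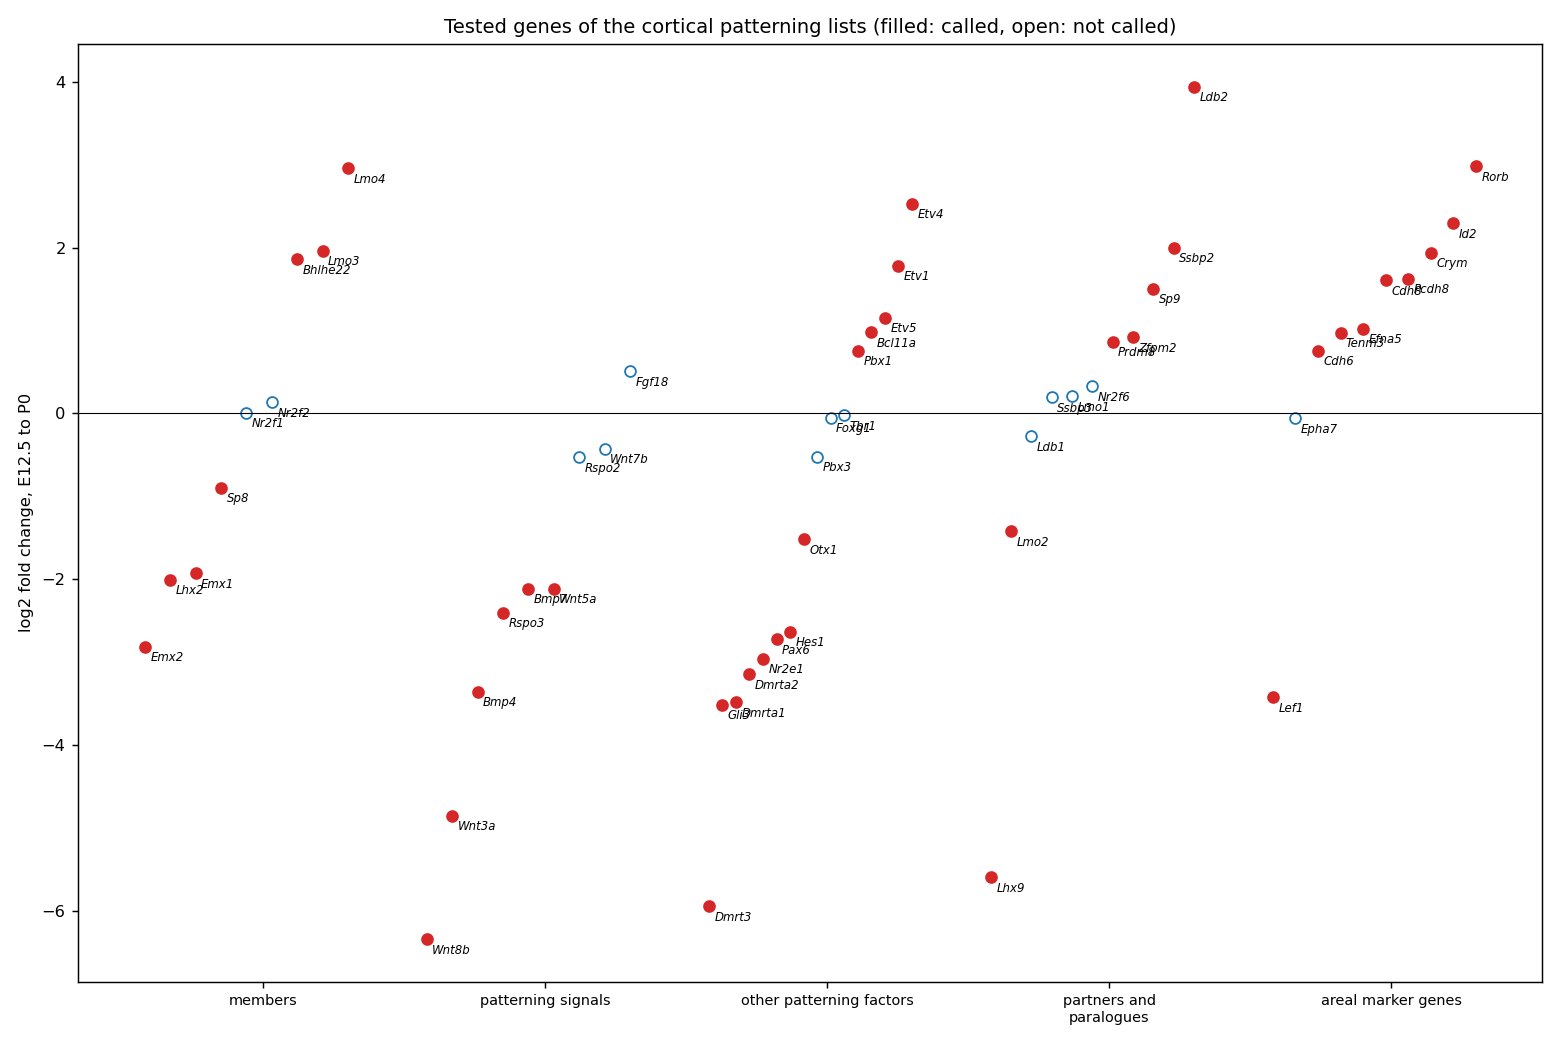
Fitted log2 fold change from E12.5 to P0 (vertical axis) of the tested genes of the members and 4 pathway lists (horizontal axis, sorted within a list), filled where called and open where not. Of the signals 6 of 9 are filled and below 0, 8 of 10 areal marker genes are filled and above 0, and the points of Wnt8b, Wnt3a and Dmrt3 rest on 0 to 7 counts per P0 library, so their height depends on the fit.

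Markers of the cell types that the tissue holds moved at E14 to E15.5, and some of them at the later steps as well. At E14 to E15.5, 16.5% of all genes were called higher and 19.6% lower, and from E12.5 to P0 30.1% and 32%. These shares were 5.61% and 3.43% at E15.5 to E17, and 9.46% and 11.1% at E17 to P0. The 12 markers of postmitotic neurons summed to between 3447 and 3549 CPM (E14) and between 7965 and 8352 (E15.5). In that step 11 of 12 were called higher, and 12 of 12 were from E12.5 to P0. Of the 12, 3 were called higher at E15.5 to E17 and 5 at E17 to P0. Of 8 markers of intermediate progenitors, 8 were called lower over the whole series, 6 at E14 to E15.5, 5 at E15.5 to E17 and 7 at E17 to P0. Of 10 radial glia markers, 7 were called lower and 1 higher from E14 to E15.5, and 7 lower and 2 higher over the whole series. At E15.5 to E17, 2 were called lower and 1 higher, and at E17 to P0 4 were called lower. The sum of these 10 markers nonetheless stayed between 2270 and 2658 CPM up to E17. Fabp7 held the most counts of the 10 in every library, 18898 and 24050 at E12.5 and 62116 and 56893 at E17. The sum therefore follows Fabp7 more than the other markers. The neuronal markers rose with Lmo3, Lmo4 and Bhlhe22, and most progenitor markers, but not the radial glia sum up to E17, fell with Emx1, Emx2, Lhx2 and Sp8. Their part in the members' changes was not tested.

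Markers of tissue that adjoins the neocortex dropped at E14 to E15.5 as well, a step at which 19.6% of all genes were called lower. The 10 choroid plexus markers summed to between 1202 and 1208 CPM (E14) and to between 12 and 14.7 (E15.5), with 7 of 8 tested genes called lower and 1 of 10 without a count at E15.5. Meninges markers summed to 70.5 to 78.8 CPM before and 4.18 to 5.03 CPM after (10 of 10 called lower), and endothelium markers to 76.7 to 83.7 and 20.6 to 27.0 CPM (10 of 10). At E12.5 the choroid plexus sum was lower than at E14, at 304 to 387 CPM. From E12.5 to E14, 3 of its 8 tested genes were called higher, beside 0.497% of all genes, and 0 members were called. The choroid plexus and the cortical hem border the medial wall, where Emx2, Lhx2, Wnt8b and Dmrt3 are known to be expressed. The markers of adjoining tissue moved with the falls of Emx1, Emx2, Lhx2 and Sp8 at E14 to E15.5. Their part was not tested. After E15.5 the sums of choroid plexus and meninges stayed low, at 15.7 CPM in both P0 libraries for the first and 4.51 to 5.11 CPM for the second. The endothelium sum was 37.9 to 38.7 CPM at E17 and 18.4 to 40.4 CPM at P0. Between E15.5 and P0, Lhx2 went from 79.8 and 82.1 to 40.1 and 31.9 CPM, and Emx2 from 12.1 and 12.3 to 6.96 and 5.44 CPM. Whether the courses of these markers and members are linked was not tested.

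Interneuron and ganglionic eminence markers, which bear on Nr2f2 and Sp8 because both are known from interneurons, summed to 55.6 to 62.7 CPM at E12.5, 172 to 183 at E15.5 and 233 to 281 at P0. Of 12 such markers, 11 were called higher over the whole series and 8 at E14 to E15.5. Among all genes 30.1% were called higher and 32% lower over the whole series, and 16.5% higher at E14 to E15.5. Nr2f2 was not called in either comparison, and Sp8 was called lower in both. The part of interneurons in the footprints of Nr2f2 and Sp8 was not tested. Markers of astrocytes and other glia summed to 41.8 to 42.8 CPM at E15.5 and 146 to 179 at P0 (9 of 11 tested higher and 1 lower from E12.5 to P0), of red blood cells to 11214 to 11607 CPM at E12.5 and 1439 to 1862 at P0 (9 of 9 tested lower), and of diencephalon to 36.9 to 41.1 and 18.6 to 22.9 CPM (1 higher and 2 lower of 3 tested).

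**Figure D5:**
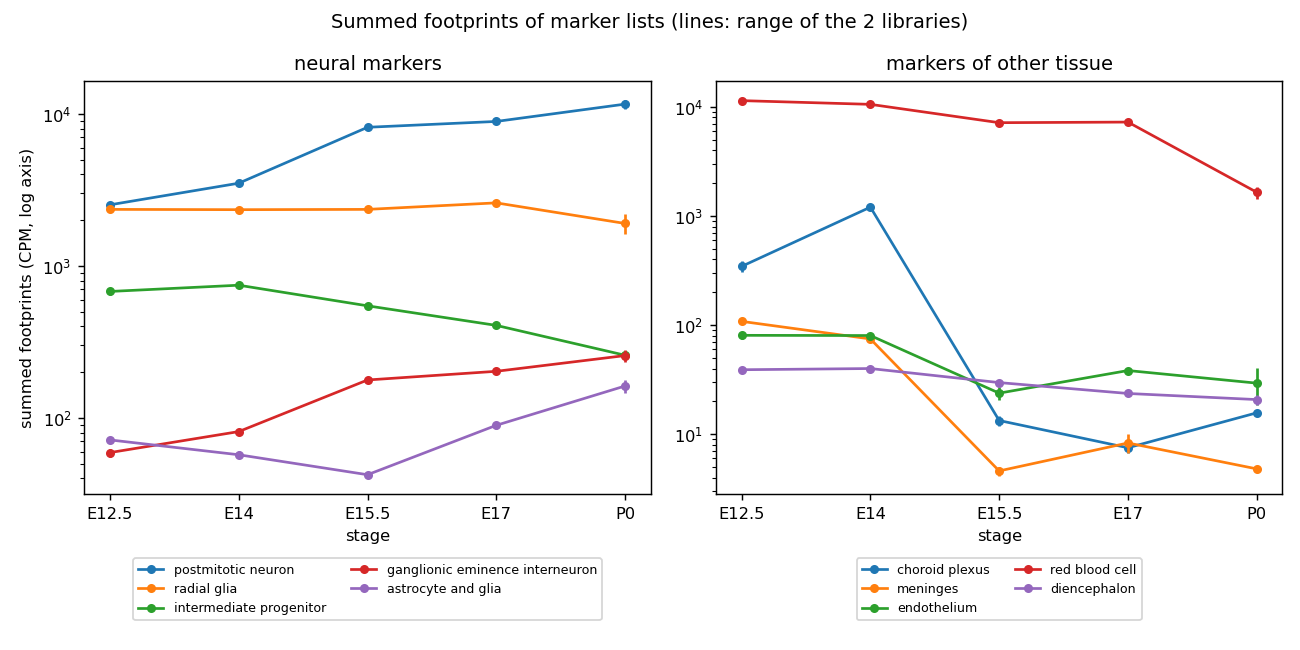
Summed CPM of each marker list (vertical axis, log scale) against stage (horizontal axis), with points for the means of the 2 libraries and vertical lines for their range. Neuronal markers climb from E14 to E15.5, and choroid plexus markers drop from over 1202 to under 14.7 CPM in the same step.

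Over the 10 libraries Pearson's r of log2 CPM was between 0.949 and 0.972 among Emx1, Emx2 and Lhx2, between 0.866 and 0.933 among Lmo3, Lmo4 and Bhlhe22, and between -0.99 and -0.751 across these groups. Sp8, also called lower, had an r of 0.793 with Emx1, 0.792 with Emx2 and 0.627 with Lhx2. The points share stages and libraries, so r describes a common course in time. For each member, the 3 genes with the highest r were taken from the 9214 genes whose counts averaged at least 100 per library.

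Closest to Emx2 were Dut (0.995), which clears dUTP during DNA replication, Pdk3 (0.994) and Myo9b (0.992), and closest to Emx1 were Rbm38 (0.996), Rpl13a (0.994) and the replication factor subunit Rfc2 (0.993). Dut had 316 ± 18.6 CPM (SD, n = 2) at E12.5 and 56.7 ± 7.64 at P0. Lhx2 was nearest to Btg2, an antiproliferative gene of neurogenic progenitors, and to the histone genes Hist1h2bq and Hist1h2br (0.997 each), whose near-identical copies make their own counts uncertain. Sp8 lay nearest to Pus1, Gm10358 and Ldha, at 0.976 each. Among the rising members, Lmo3 was nearest to the synaptic gene Cplx1, the 14-3-3 gene Ywhag and C530008M17Rik (0.997 each), Lmo4 to Mtss1l (0.997), Ankrd13b and Prrt2 (0.994 each), and Bhlhe22 to the neurofilament gene Ina and Ralgds (0.99 each) and Wnk2 (0.989). Cplx1 had 6.75 ± 0.181 CPM at E12.5 and 78.4 ± 13.9 at P0.

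For Nr2f1, one of the members without a called change, the highest r were 0.976 with Pdf, 0.947 with Mrpl53 and 0.94 with Zbed5, and Pdf had, like Nr2f1, its widest spread at P0 (8.71 ± 3.98 CPM, n = 2). For Nr2f2 they were 0.962 with Cotl1, 0.917 with Tmem50b and 0.891 with Mpnd. Cotl1 had 334 ± 25.9 CPM at E12.5, 511 ± 20.7 at E14 and 392 ± 35.5 at P0, the same order of these stages as Nr2f2.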

How the data were processed

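The values are footprint counts, whole numbers for each gene in each library, as the authors deposited them. Per the study's methods, the authors trimmed adapters, collapsed duplicates and removed tRNA, rRNA and snoRNA reads with Bowtie 2. They aligned the rest with STAR to GENCODE coding transcripts and the genome, keeping reads with several matches. The STAR version is 2.7.0 in the submitters' processing notes, whereas the methods name another version. Whether the table then went through the named isoform and gene estimation steps is not given in the sources used here, so genes with near-identical copies are uncertain. Identifiers were matched to symbols for 22274 of 22373 genes. Groups came from the labels, 2 libraries per stage, and the labels do not say more on how the pools were kept apart, so p-values measure the spread between 2 pools.

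A gene was tested when the libraries of at least 1 stage together held 32 footprints (13484 genes) with TMM factors (edgeR 4.0.16) and limma-voom (limma 3.58.1, R 4.3.3), 1 coefficient per stage over all 10 libraries. Tests were two-sided with Benjamini-Hochberg adjustment over all tested genes. Ratios used a pseudocount of 0.5 and exact permutation tests. Alternatives were other scalings, histone genes left out, edgeR quasi-likelihood, DESeq2 1.42.0, other filters, quality weights, a replicate block, fits of 2 stages and leaving out each library. The code was tested on simulated data. Coding lengths were not used here, so no level per length was computed.

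Members, lists and tests were chosen with earlier results of these data known. Genes named are the members, the genes of the ratio pairs, the 3 nearest courses per member and, for each pathway list, up to 2 largest called rises and falls from E12.5 to P0 without overlap. Ldb1, Fabp7, Fgf18 and the untested signals were added after their values were seen. The other genes this rule takes from the marker lists are not named, since those lists are described by sums and counts.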

Additional observations from a re-analysis of the deposited data

How the results depend on the processing

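Of the members' changes, 400 of 450 values refitted without 1 library and 419 of 450 under other settings kept their direction and their side of the threshold. The calls of Emx1, Emx2, Lhx2, Lmo3 and Lmo4 over the whole series and at E14 to E15.5, and that of Bhlhe22 over the whole series, held under all of them. The number of members called from E12.5 to E14 (0, beside 86 of 13484 genes) became 1 with total counts (143 genes). It became 3 with DESeq2 (399 of 8255 genes) and 4 with quality weights (655 genes). From E15.5 to E17 (1, beside 1219 genes) it became 4 with quality weights (3717 genes) and 3 with 2 stages fitted alone (3267 genes). From E17 to P0 (3, beside 2767 genes) it became 0 with 2 stages fitted alone, where 0 of all genes were called. The member counts also moved without 1 library, in fits where 1 stage held 1 library. Without a library of E12.5, E14, E15.5 or E17, calls among all genes fell in every step that holds that stage. Calls lost or gained together with those of all genes are not read as particular to the members. Leaving out 1 library moved the log2 change of the ratio of Lmo3 to Lmo4 between -1.36 and -0.62, of Nr2f1 to Sp8 between 0.66 and 0.98, of Emx1 to Emx2 between 0.75 and 1.03, of Nr2f1 to Nr2f2 between -0.33 and 0.074 (the latter without P0 replicate 2), and of the log2 ratio Pax6 to Emx2 between -0.092 and 0.16, negative without E12.5 replicate 1 (-0.037) and P0 replicate 2 (-0.092).

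Changes that turned sign were all small or rested on a P0 library, and their cause was not tested. With total counts, Lhx2 from E12.5 to E14 (0.044), Nr2f1 (0.27) and Nr2f2 (0.24) from E14 to E15.5 and Nr2f2 from E15.5 to E17 (0.0093) turned positive. Without 1 library, values from E12.5 to E14 ranged from -0.094 to 0.23 for Nr2f1 and from -0.15 to 0.13 for Lhx2, those from E14 to E15.5 from -0.078 to 0.036 for Nr2f1, and those from E15.5 to E17 from -0.12 to 0.017 for Nr2f2. From E17 to P0 they ranged from -0.19 to 0.42 for Nr2f1, from -0.51 to 0.046 for Emx1 and from -0.35 to 0.58 for Bhlhe22. Nr2f1 from E12.5 to P0 became -0.0098 with no filter and ranged from -0.26 to 0.35 without 1 library.

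The replicate numbers did not meet the rule for pairing, a correlation over 0.1 in every pair of stages. The replicate differences of 2 stages correlated between -0.63 and 0.43, over 0.1 in 5 of 10 stage pairs, and 4 of 5 stages lay nearer their own number. The 4 pairs with E12.5 lay between -0.63 and -0.11 and the 6 among later stages between -0.044 and 0.43, so whether the numbers pair the later stages cannot be told from these values. A fit with the replicate number as a block lost the call of Emx2 from E17 to P0 (adjusted p = 0.063) and made the ratio of Emx1 to Emx2 pass (0.89, exact permutation within blocks, adjusted p = 0.0278), and changed no other call of a member or ratio.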
